A study of Mus musculus with 18 samples.

Results

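A set of 10 nuclear genes that build and remodel mitochondria was followed through 18 retinal RNA libraries: the outer membrane porins Vdac1, Vdac2 and Vdac3, the fusion GTPases Opa1, Mfn1 and Mfn2, the fission GTPase Dnm1l, the mitophagy kinase Pink1, and the biogenesis genes Ppargc1a and Tfam. The members were taken by gene symbol, 10 of the 35006 gene names in the count tables, and all 10 were among the 16183 genes that passed the filter on low counts. The mice were male C57BL/6J (WT) and C57BL/6-Ins2Akita/J (Akita) animals, the latter heterozygous for the Ins2 Akita mutation, which gives insulin-deficient diabetes. Both genotypes drank either water as vehicle or water with NACET (N-acetylcysteine ethyl ester, a cell-permeable cysteine donor) at 0.33 mg/mL, or 50 mg/kg/day, from 4 weeks of age until the retinas were taken at 24 weeks. There were 3 libraries of WT, 6 of WT + NACET, 4 of Akita and 5 of Akita + NACET, and all share the C57BL/6 background, the sex and the age. The labels do not say whether each library is a separate animal, and p-values then measure only the spread between these samples.

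Voltage-dependent anion channels are the pores through which ATP, ADP and other metabolites cross the outer mitochondrial membrane. Mitochondria are in constant fusion and fission: mitofusins join the outer membranes, OPA1 joins the inner membranes and shapes the cristae, and DRP1, the product of Dnm1l, constricts and divides the organelle. PINK1 marks damaged mitochondria for removal, while PGC-1alpha, from Ppargc1a, drives the making of new ones. TFAM packages mitochondrial DNA and helps to start its transcription. In the retina most mitochondria lie in photoreceptor inner segments, where they meet one of the highest energy demands of any tissue.

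Between 11590384 and 18073791 reads were counted in genes per library, and levels are given here as CPM (counts relative to library size, TMM-scaled). Rods were well represented, with 129019 to 296193 counts of Gnat1, the rod transducin subunit, per library, whereas Ins2, the gene mutated in Akita, had only 0 to 9 counts and so gave no check of the genotype. Among uniquely aligned reads, the percentage that lay outside annotated exons (the outside-exon share) was 14.9 to 17.1% in WT, 9.55 to 16.5% in WT + NACET, 9.67 to 13.3% in Akita and 14.3 to 19.8% in Akita + NACET. A fit with this share as a covariate gave other values for several members, and these are given beside the results they change. The Akita range lay below those of WT and of Akita + NACET. In contrasts of these groups the covariate and the group can therefore hardly be told apart. In RNA of whole retina, fewer cells of a type and less RNA per cell cannot be told apart.

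Relative to the length of their annotated exons, Pink1 and Vdac1 were the most abundant of the 10 genes and Mfn1 and Tfam the least. Pink1 had 184 CPM per kb (mean over 18 libraries) and Vdac1 177, and these neighbours could not be ordered, since Pink1 was the higher in 10 of 18 libraries. Vdac2 (56.1), Vdac3 (53.6) and Dnm1l (49.9) followed with overlapping ranges, then Mfn2 at 36.9 CPM per kb, whose range lay apart from that of the next gene. Opa1 (11.8) and Ppargc1a (10.6) overlapped, as did Mfn1 (5.30) and Tfam (4.92), where Mfn1 was the higher in 9 of 18 libraries. Among 15896 genes with a length, these levels spanned the 51.6th percentile (Tfam) to the 98.6th (Pink1).

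**Figure D1:**
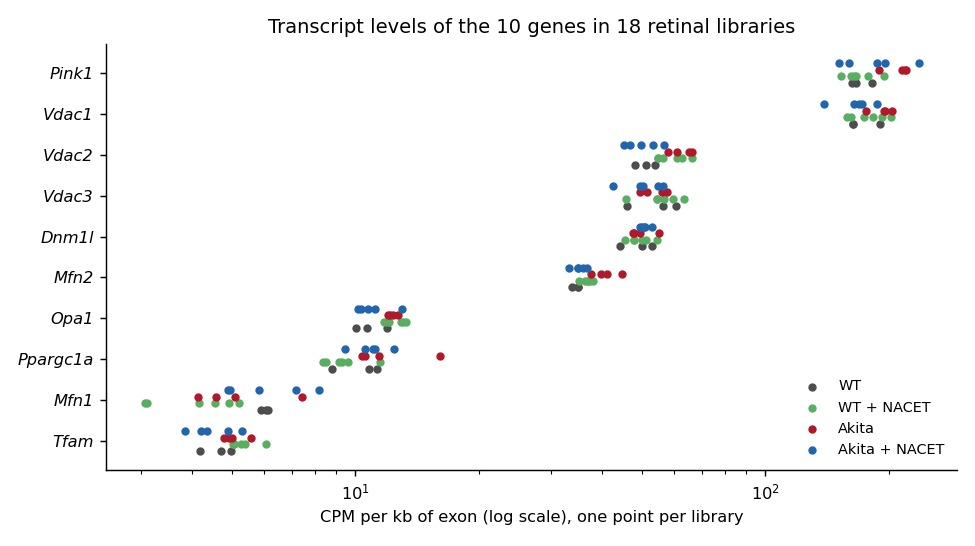
Level of each of the 10 genes in each of the 18 libraries, in CPM per kb of exon on a log axis, with colours for the 4 groups. Pink1 (mean 184) and Vdac1 (177) overlap at the top, Mfn1 (5.30) and Tfam (4.92) at the bottom, and Mfn1 has the widest relative spread.

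The relative spread over all 18 libraries differed between the genes. Dnm1l was the steadiest, with a coefficient of variation of 5.65%, followed by Mfn2 (7.61%) and Opa1 (8.88%). Mfn1 varied most, at 25.9%, and Ppargc1a (17.0%) and Pink1 (14.0%) came next. Pairwise correlations of log2 CPM between the 10 genes over the 18 libraries, which share group and depth differences, had a median r of 0.25 and ran from -0.58 (Mfn1 with Tfam) to 0.80 (Vdac2 with Mfn2). Of the 45 pairs 34 were positive, and with group means removed the median r was 0.27.

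The 6 contrasts were drawn from 1 edgeR fit over all genes, and a gene was called where the adjusted p (edgeR quasi-likelihood F test, Benjamini-Hochberg over 16183 genes) was at most 0.05. The contrasts share groups with each other, so their results are not independent, and each is given with its own values. In Akita against WT no member was called, where 7.64% of all genes tested were. With NACET, Vdac2 and Mfn2 fell in Akita mice, where 5.14% of all genes fell. Neither was called in WT mice, and the interaction was called for Vdac2, Opa1 and Mfn2, where it was called for 20.3% of all genes.

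**Figure D2:**
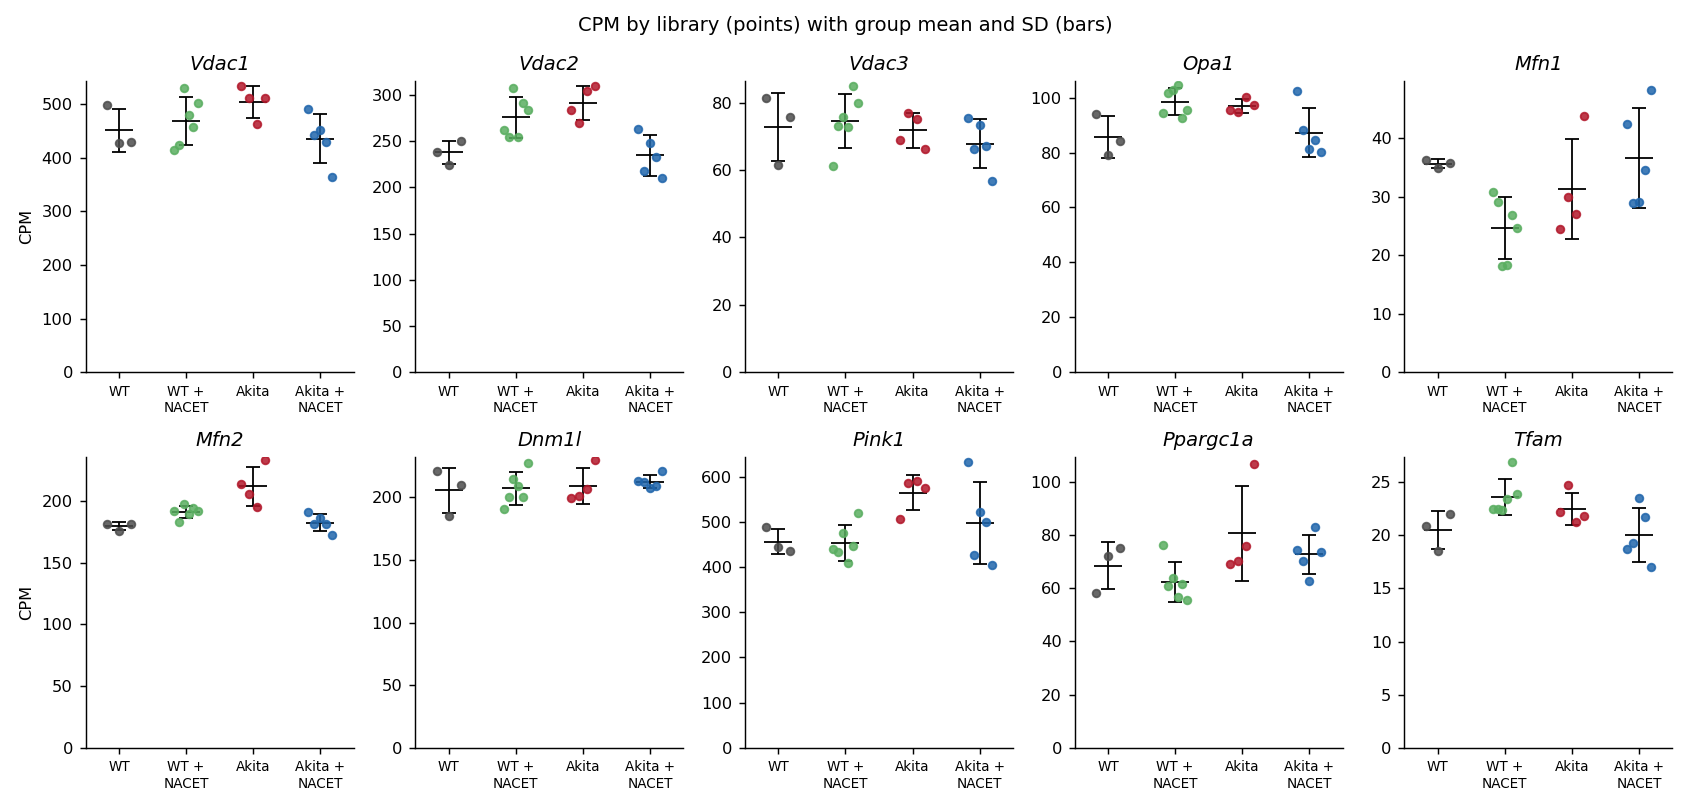
CPM of each of the 10 genes by group, each point a library and each bar the group mean ± SD (n = 3, 6, 4 and 5 libraries). In Vdac2 and Mfn2 the 4 Akita libraries all lie above the 5 Akita + NACET libraries and the 3 WT libraries, whereas the 4 groups of Dnm1l overlap.

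Of the porins, Vdac1 is the major isoform and the docking site of hexokinases. It had 498, 429 and 429 CPM in WT, 415 to 531 (median 469) in WT + NACET, 534, 512, 463 and 511 in Akita, and 491, 443, 453, 430 and 365 in Akita + NACET. Of the 4 Akita libraries 3 lay above every WT library, yet the ranges overlapped and the log2 difference of 0.16 ± 0.11 (SE) was not called (edgeR adjusted p = 0.366). The log2 difference of Akita + NACET from Akita was -0.21 ± 0.10 (edgeR adjusted p = 0.152). With the outside-exon share as covariate these were 0.013 and -0.067 (edgeR adjusted p = 0.973 and 0.887).

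Vdac2, which also holds the apoptosis effector BAK in check, was the member with the clearest pattern. It had 238, 225 and 250 CPM in WT, 255 to 308 (median 273) in WT + NACET, 284, 270, 304 and 309 in Akita, and 264, 218, 248, 232 and 210 in Akita + NACET. Every WT + NACET and every Akita library was above every WT library, and every Akita + NACET library was below every Akita library. The log2 difference of Akita from WT was 0.30 ± 0.10 (95% interval 0.09 to 0.50), short of the threshold (edgeR adjusted p = 0.0634). In Akita mice NACET lowered the mean from 292 ± 18.4 CPM (SD, n = 4) to 235 ± 21.8 (n = 5), a log2 fold change of -0.31 ± 0.08 or a fall of 19.6% (edgeR adjusted p = 0.0300). In WT mice the difference had the other sign, 0.21 ± 0.09, and was not called (edgeR adjusted p = 0.201). The interaction, the NACET difference in Akita minus that in WT, was -0.53 ± 0.12 (95% interval -0.79 to -0.27, edgeR adjusted p = 0.00828). It was called in each of the 18 fits that left out 1 library, with adjusted p from 0.00537 to 0.0327. The fall in Akita mice, by contrast, was not called without Akita replicate 3 or 4 or Akita + NACET replicate 2, 4 or 5 (adjusted p 0.0533 to 0.0824).

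Vdac3, a porin needed for normal sperm motility, had 81.3, 61.5 and 75.6 CPM in WT, 61.3 to 85.03 (median 74.3) in WT + NACET, 68.8, 77.0, 75.2 and 66.2 in Akita, and 75.5, 66.2, 73.4, 67.2 and 56.8 in Akita + NACET. The 4 groups overlapped throughout, and the 6 contrasts lay between -0.14 and 0.04 with none called. With the outside-exon share as covariate they lay between -0.20 and 0.20, again with none called. Per kb, Vdac1 made up 61.8% of the VDAC level on average over the 18 libraries (range 58.1 to 64.5%), Vdac2 19.5% (16.9 to 21.9%) and Vdac3 18.7% (15.9 to 21.1%). These shares leave out the near-identical pseudogene Vdac3-ps1 described below, which had 1.15 to 1.39 times the Vdac3 count. They also leave out reads that aligned to several places. The shares depend further on the annotated exon lengths, 2620 bases for Vdac1, 4658 for Vdac2 and 1339 for Vdac3. The coding sequences are of like length (891, 888 and 852 bases). The 3 shares, and the order of Vdac2 and Vdac3, are therefore uncertain.

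The Vdac3 coding sequence has near-identical copies. Vdac3 lies on the minus strand of mm9 at chr8:23687573-23704230, and its coding sequence of 852 bases recurs without introns at chr13:18122576-18123427 (minus strand), annotated as the pseudogene Vdac3-ps1, with 848 of 852 bases identical. A further copy at chr14:28023583-28024435 has 829 of 854 bases identical and no annotated exon. The 4 substitutions of Vdac3-ps1, counted from 1 at the A of the Vdac3 start codon and with the Vdac3 base first, were T21C, T237C, G404A and T445G. The stretch of 60 coding bases around T237C shows how few reads can tell them apart; capitals mark the base that differs, the Vdac3 copy is split by an intron after coding base 270 (chr8:23692593-23694100), and the pseudogene copy is continuous (chr13:18123143-18123202).
Vdac3: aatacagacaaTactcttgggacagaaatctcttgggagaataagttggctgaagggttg
Vdac3-ps1: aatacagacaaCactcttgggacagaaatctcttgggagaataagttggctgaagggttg
Reads that aligned to several places were not counted, so the level of Vdac3 is uncertain. Vdac3-ps1 collected 945 to 1769 counts per library, 1.15 to 1.39 times the Vdac3 count of the same library (1.26 ± 0.07, SD, n = 18), and was called in none of the 6 contrasts. With its counts added to Vdac3 the difference of Akita from WT was 0.03 in place of -0.02 on the log2 scale, and no contrast was called.

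The other porins differ more from one another: the coding sequences of Vdac1 and Vdac2 were identical at 72.4% of 872 aligned bases, Vdac1 and Vdac3 at 70.4% of 838, and Vdac2 and Vdac3 at 75.2% of 840. Vdac2 (plus strand, chr14:22650491-22665101) had 1 copy elsewhere in mm9, at chr5:92189719-92190604, with 861 of 887 bases identical and no annotated exon there. It also shares 19 exon bases with Comtd1, which is transcribed in the other direction, and reads were counted without their strand.

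**Figure D3:**
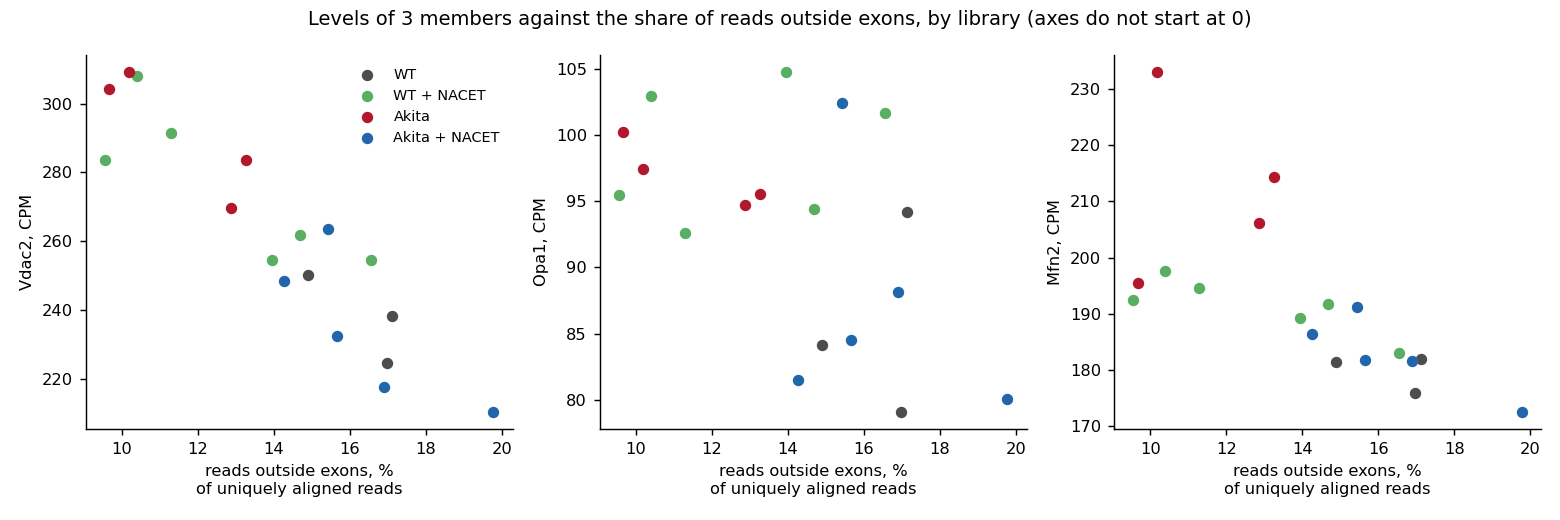
CPM of Vdac2, Opa1 and Mfn2 in each of the 18 libraries against the percentage of uniquely aligned reads outside annotated exons, with colours for the 4 groups. The 5 libraries with the lowest percentage have 284 to 309 CPM of Vdac2 and the 5 with the highest have 210 to 255.

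Vdac2 moved with the outside-exon share. The 5 libraries with the lowest share (9.55 to 11.3%) had 284 to 309 CPM of Vdac2, and the 5 with the highest (16.5 to 19.8%) had 210 to 255, without overlap. With that share as a covariate the difference of Akita from WT was 0.091 (edgeR adjusted p = 0.682), that of NACET in WT 0.060 (0.855), that of NACET in Akita -0.11 (0.720) and the interaction -0.17 (0.714). In none of the 6 contrasts was any of the 10 genes called. The loss was not particular to them: of all 16183 genes, 17 kept or gained an interaction call, where the original fit gave 3289. With the covariate, the NACET contrast called 61 genes in WT mice (240 in the original fit) and 0 in Akita mice (1562). Between genotypes 0 genes were called without NACET (1237) and 194 with it (2148). Treated Akita differed from untreated WT in 1 gene by either fit. Every Akita library had a lower share than every WT and every Akita + NACET library, so covariate and group can hardly be told apart there. A call lost in this fit is therefore not evidence of no difference. Whether the share had a part in the Vdac2 differences was not tested.

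Opa1 (chr16:29579420-29654970, plus strand), the inner membrane fusion GTPase mutated in dominant optic atrophy, had 94.1, 79.1 and 84.1 CPM in WT, 92.6 to 105 (median 98.5) in WT + NACET, 95.5, 94.7, 100.2 and 97.4 in Akita, and 102, 88.1, 81.5, 84.5 and 80.1 in Akita + NACET. The 4 Akita libraries lay above the 3 WT libraries, and all but 1 of the Akita + NACET libraries lay below the Akita range. Neither the difference of Akita from WT (0.18 ± 0.09, edgeR adjusted p = 0.200) nor that of NACET in WT (0.20 ± 0.08, 0.184) or in Akita (-0.15 ± 0.08, 0.196) was called. The interaction was, at -0.35 ± 0.11 (95% interval -0.59 to -0.12, edgeR adjusted p = 0.0323). It was not called without any 1 of 6 libraries (WT replicate 2 or 3, WT + NACET replicate 3, Akita replicate 3, Akita + NACET replicate 4 or 5), with adjusted p from 0.0514 to 0.103. Fitted with the outside-exon share as a covariate it was -0.33 (edgeR adjusted p = 0.566).

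Mfn2 (chr4:147247708-147278813, minus strand), which also tethers mitochondria to the endoplasmic reticulum and is mutated in Charcot-Marie-Tooth disease, had 182, 176 and 181 CPM in WT, 183 to 198 (median 192) in WT + NACET, 214, 206, 195 and 233 in Akita, and 191, 182, 186, 182 and 172 in Akita + NACET. All Akita libraries were above all WT and all Akita + NACET libraries, and all WT + NACET libraries were above all WT libraries. The Akita to WT difference of 0.24 ± 0.07 (95% interval 0.08 to 0.39) missed the threshold in edgeR (adjusted p = 0.0523) and passed it in DESeq2 (0.25, adjusted p = 0.00447). Under NACET the level in Akita fell by 13.9%, a log2 fold change of -0.22 ± 0.07 (edgeR adjusted p = 0.0425), from 212 ± 15.9 CPM (SD, n = 4) to 183 ± 6.92 (n = 5). In WT mice the NACET difference was 0.09 ± 0.07 (edgeR adjusted p = 0.474). The interaction was -0.31 ± 0.10 (95% interval -0.51 to -0.11, edgeR adjusted p = 0.0289).

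These Mfn2 calls were lost in some of the fits that left out 1 library, though the estimates kept their sign. Over those fits the fall in Akita mice ran from -0.25 to -0.17 and the interaction from -0.35 to -0.26. The fall in Akita mice was not called without Akita replicate 1, 2 or 4 or Akita + NACET replicate 2, 4 or 5 (edgeR adjusted p 0.0505 to 0.124), nor the interaction without WT replicate 1 or 2 (0.0601 and 0.0763). Mfn2 had 192 to 233 CPM in the 5 libraries with the lowest outside-exon share and 172 to 183 in the 5 with the highest. With that share as a covariate the difference of Akita from WT was 0.18 (edgeR adjusted p = 0.392), that of NACET in Akita -0.15 (0.633) and the interaction -0.20 (0.648), and its part in the result was not tested.

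Mfn1 (chr3:32428387-32478161, plus strand), the more active tethering GTPase of the pair, had 36.3, 34.9 and 35.8 CPM in WT, 18.1 to 30.8 (median 25.8) in WT + NACET, 24.5, 29.995, 27.1 and 43.8 in Akita, and 42.4, 28.9, 29.2, 34.5 and 48.3 in Akita + NACET. The WT libraries were close together and above all WT + NACET libraries, while the other groups spread widely and overlapped. The log2 difference of WT + NACET from WT was -0.53 ± 0.20 (95% interval -0.94 to -0.12) and was not called (edgeR adjusted p = 0.153). Under NACET, Akita exceeded WT by 0.57 ± 0.17 on the log2 scale, or 48.5% (95% interval 0.21 to 0.93, edgeR adjusted p = 0.0345), with 36.6 ± 8.50 CPM (SD, n = 5) against 24.6 ± 5.36 (n = 6). Their ranges overlapped, and the call was lost without any 1 of 7 of the 11 libraries (Akita + NACET replicate 1, 4 or 5 or WT + NACET replicate 3, 4, 5 or 6, adjusted p 0.0526 to 0.124). The interaction of 0.76 ± 0.27 missed the threshold in edgeR (adjusted p = 0.0562) and passed it in DESeq2 (0.75, adjusted p = 0.0361). With the outside-exon share as covariate the difference between the treated genotypes was 0.42 (edgeR adjusted p = 0.364), that of NACET in WT -0.40 (0.617) and the interaction 0.42 (0.784).

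**Figure D4:**
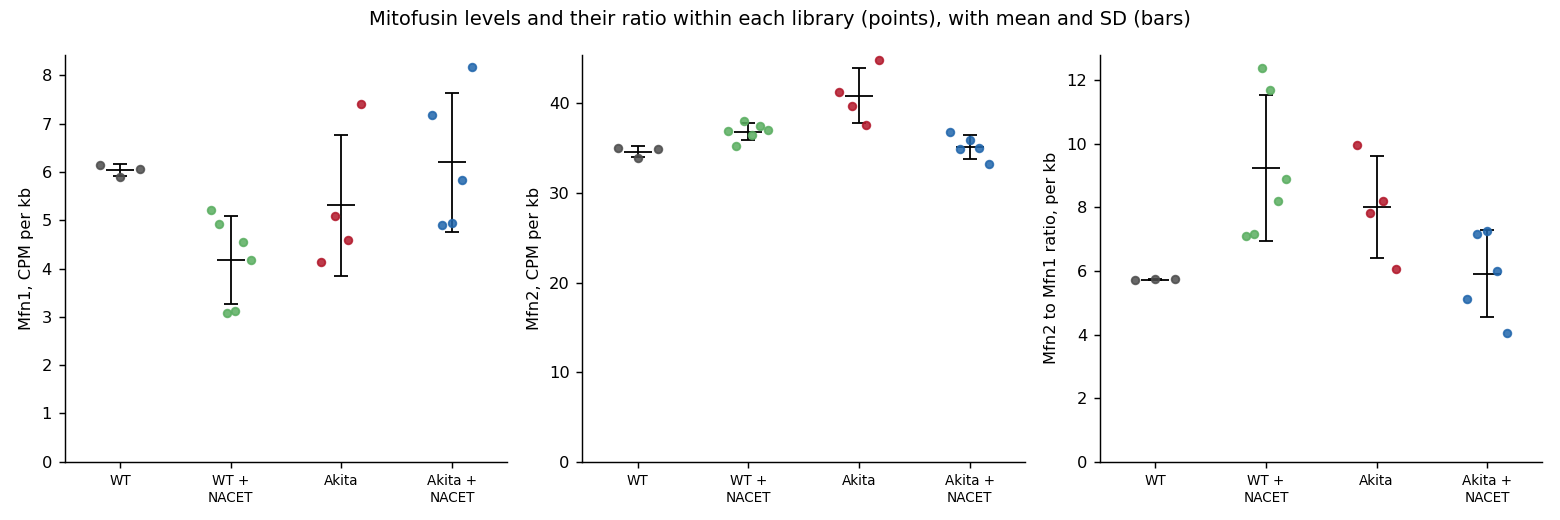
Mfn1 and Mfn2 in CPM per kb of exon, and the ratio of Mfn2 to Mfn1, in each library by group, with bars for the group mean ± SD (n = 3, 6, 4 and 5 libraries). All WT + NACET libraries lie below the WT libraries for Mfn1 and above them for Mfn2, so their ratios (7.09 to 12.4) all lie above those of WT (5.70 to 5.76).

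The balance of the mitofusins, as the ratio of Mfn2 to Mfn1 in CPM per kb, was 5.70 to 5.76 in WT, 7.09 to 12.4 (median 8.55) in WT + NACET, 6.05 to 9.95 (median 8.01) in Akita and 4.06 to 7.27 (median 5.99) in Akita + NACET. Every library of WT + NACET and of Akita was above every WT library, and Akita + NACET spanned the WT values. For WT + NACET this follows from the separate ranges of Mfn1 and Mfn2 given above and adds nothing to them. How often the ratios of other gene pairs separate these groups was not examined. In the 5 libraries with the lowest outside-exon share the medians were 26.9 CPM for Mfn1 and 195 for Mfn2. In the 5 with the highest they were 34.9 and 182. The part of the share in the ratio was not tested. The coding sequences of the pair were identical at 73.1% of 2151 aligned bases. A part of the Mfn1 coding sequence recurs at chr16:62870050-62870226, with 161 of 178 bases identical.

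Promoter windows from RefSeq were available for 8 of the 10 genes (12 windows, 250 bases before to 50 bases after each start). There was none for Vdac2 or Vdac3. They were searched on both strands for the core site of NRF1, a factor of nuclear genes for mitochondria (GCGCATGC, in 2.71% of 32851 mouse windows), for the ETS core bound by GABP (CCGGAAG, 8.86%), for the ERR half-site (AAGGTCA, 4.72%), for the CRE (TGACGTCA, 1.79%) and for the antioxidant response element (TGACNNNGC, 12.4%). The 3 fusion genes are shown because the calls above include each of them, with the 250 bases upstream of the start 5′ to 3′ as found at a single place in mm9 and the matches in capitals: Opa1 at chr16:29579170-29579419 (plus), Mfn1 at chr3:32428154-32428403 (plus) and Mfn2, the first of 3 windows, at chr4:147279019-147279268 (minus).
Opa1: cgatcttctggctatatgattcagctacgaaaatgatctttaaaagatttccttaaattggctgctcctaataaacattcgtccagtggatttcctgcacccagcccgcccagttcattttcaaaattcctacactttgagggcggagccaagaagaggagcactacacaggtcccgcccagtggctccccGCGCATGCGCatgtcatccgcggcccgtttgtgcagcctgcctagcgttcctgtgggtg
Mfn1: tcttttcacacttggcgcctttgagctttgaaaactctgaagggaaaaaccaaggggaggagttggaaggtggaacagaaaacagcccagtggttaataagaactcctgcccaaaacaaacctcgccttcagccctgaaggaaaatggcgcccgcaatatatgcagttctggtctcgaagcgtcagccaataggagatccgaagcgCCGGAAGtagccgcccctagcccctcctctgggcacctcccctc
Mfn2: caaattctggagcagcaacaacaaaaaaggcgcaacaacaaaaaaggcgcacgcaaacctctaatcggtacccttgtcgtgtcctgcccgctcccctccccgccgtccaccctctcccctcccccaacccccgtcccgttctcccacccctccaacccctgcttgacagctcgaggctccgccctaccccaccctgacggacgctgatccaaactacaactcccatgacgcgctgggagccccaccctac
Opa1 had 2 overlapping NRF1 cores, which start at -59 and -57 from its RefSeq start, Mfn1 had an ETS core at -44, and none of the 3 Mfn2 windows matched any of the 5 motifs. Elsewhere an ETS core lay at -47 of Tfam, at -105 of 1 Vdac1 window and at +12 of 1 Dnm1l window, and an ERR half-site at -106 of the other Vdac1 window. No window of these 8 genes held the CRE or the antioxidant response element, and the promoters of Vdac2 and Vdac3 were not searched. A match is a stretch of letters and not evidence of binding.

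The fission gene Dnm1l (chr16:16312328-16359123, minus strand) was level across the design. It had 221, 186 and 210 CPM in WT, 191 to 228 (median 205) in WT + NACET, 200.1, 201, 207 and 230 in Akita, and 213, 212, 208, 209 and 221 in Akita + NACET, with all 4 ranges overlapping. The log2 difference of Akita from WT was 0.03 (95% interval -0.15 to 0.20, edgeR adjusted p = 0.870) and that of NACET in Akita 0.02 (-0.13 to 0.18, 0.871). The ratio of Mfn2 to Dnm1l in CPM per kb was 0.66 to 0.76 in WT, 0.68 to 0.81 in WT + NACET, 0.76 to 0.86 in Akita and 0.63 to 0.72 in Akita + NACET, so that the Akita libraries were above all Akita + NACET libraries and overlapped the WT range.

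Pink1 (chr4:137869324-137882222, minus strand), the kinase that recruits Parkin, had 488, 446 and 436 CPM in WT, 409 to 521 (median 443) in WT + NACET, 507, 587, 591 and 576 in Akita, and 633, 428, 523, 501 and 404 in Akita + NACET. All 4 Akita libraries were above all 3 WT libraries, while the treated Akita libraries ran from below the WT range to the highest value of the set. The Akita to WT difference was 0.31 ± 0.13 on the log2 scale, with an unadjusted p of 0.0254 and an edgeR adjusted p of 0.127, and that of NACET in Akita was -0.18 ± 0.11 (edgeR adjusted p = 0.284). With the outside-exon share as covariate these were 0.085 and 0.033 (edgeR adjusted p = 0.813 and 0.955).

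Ppargc1a (chr5:51845488-51958964, minus strand), the coactivator of mitochondrial biogenesis, had 58.2, 71.9 and 75.0 CPM in WT, 55.4 to 76.2 (median 61.2) in WT + NACET, 69.1, 70.4, 75.9 and 107 in Akita, and 74.4, 70.0, 62.7, 82.8 and 73.6 in Akita + NACET. Apart from Akita replicate 4, at 107 CPM, the groups overlapped broadly, and no contrast was called. The difference with NACET in Akita was -0.15 on the log2 scale (edgeR adjusted p = 0.452), and 0.018 without that library. Tfam (chr10:70688212-70701028, minus strand), the packaging protein of mitochondrial DNA, had 20.9, 18.5 and 22.0 CPM in WT, 22.4 to 26.9 (median 23.0) in WT + NACET, 22.2, 24.7, 21.2 and 21.8 in Akita, and 18.7, 19.3, 23.5, 21.7 and 17.0 in Akita + NACET. Its WT + NACET libraries were all above the WT libraries, but the log2 difference of 0.20 ± 0.10 was not called (edgeR adjusted p = 0.285), nor was the interaction of -0.37 ± 0.14 (edgeR adjusted p = 0.0716). With the outside-exon share as covariate these were 0.11 and -0.16 (edgeR adjusted p = 0.803 and 0.837).

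**Figure D5:**
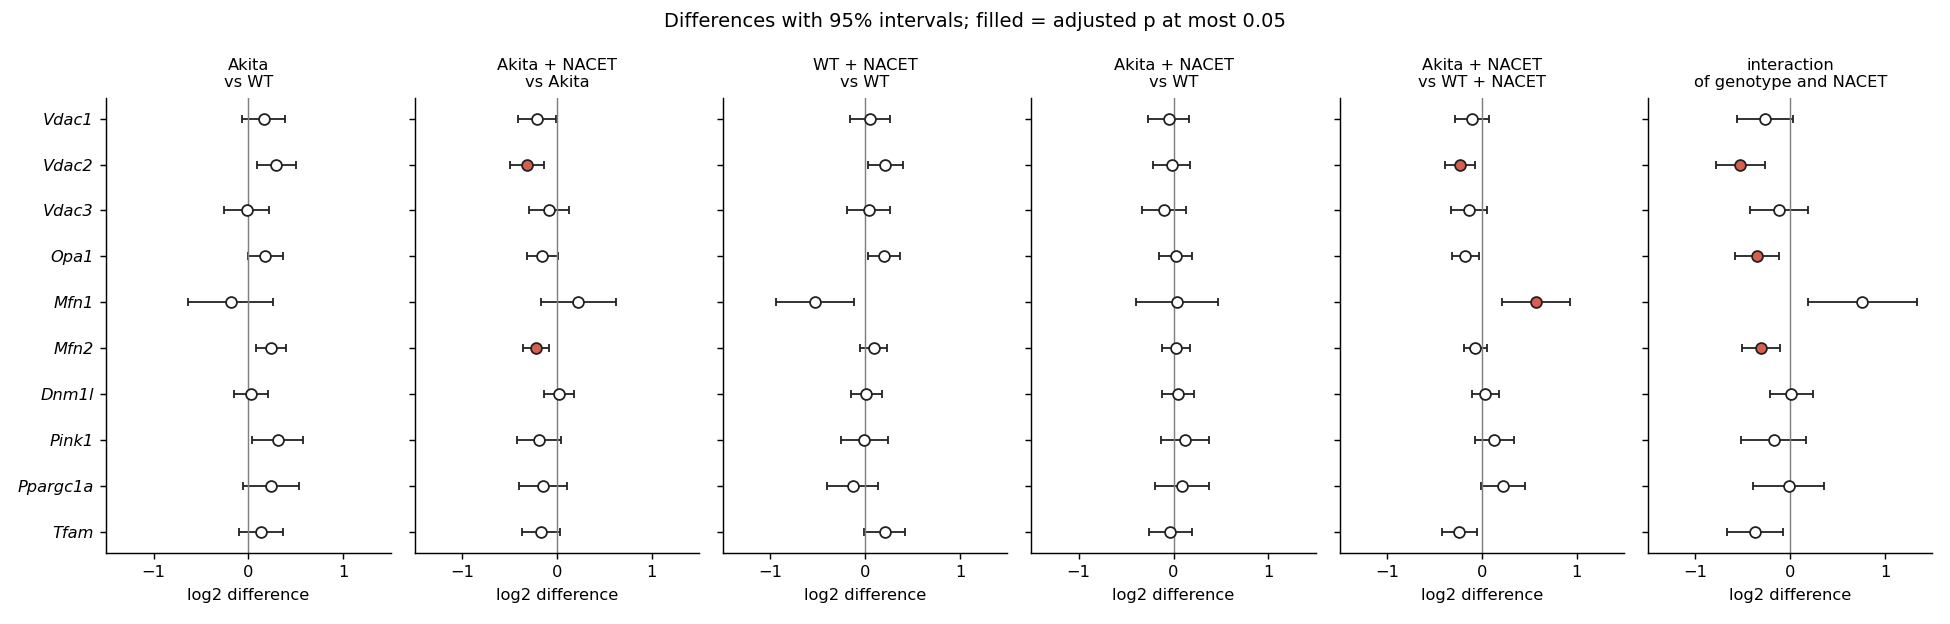
Log2 differences of the 10 genes in the contrasts, each point an edgeR estimate and each bar its 95% interval, with filled points for genes called at an adjusted p of at most 0.05. Filled points are Vdac2 and Mfn2 in Akita + NACET vs Akita, Vdac2 and Mfn1 in Akita + NACET vs WT + NACET, and Vdac2, Opa1 and Mfn2 in the interaction.

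Taken by contrast, the 10 genes stood as follows. Akita against WT asks what diabetes does to the untreated retina. There 0 of 10 were called by edgeR, where 7.64% of all genes tested were (3.96% higher and 3.68% lower). An unadjusted edgeR p under 0.05 was found for 3 of 10 (Vdac2, Mfn2 and Pink1), and for 4377 of all 16183 genes. DESeq2 called 2 (Vdac2 and Mfn2), and 13.6% of its genes. The groups did not overlap for 4 of 10 (Vdac2, Opa1, Mfn2 and Pink1), against 23.2% of all genes. The median log2 difference was 0.17, with 8 of 10 positive, against -0.01 over all genes.

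In Akita + NACET against Akita, which asks what treatment does to the diabetic retina, 2 of 10 fell (Vdac2 and Mfn2) and none rose, where 5.14% of all genes fell, 4.51% rose and 9.65% were called in either direction. DESeq2 called the same 2, and 14.8% of its genes. The same 2 genes did not overlap between the groups, against 14.1% of all genes. The median was -0.16, against -0.00 over all genes. These 2 calls were both lost in the fit on only the 2 groups compared and in the fit without a filter on low counts.

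In WT + NACET against WT, edgeR called 0 of 10, where 1.48% of all genes were called (0.859% higher and 0.624% lower). The unadjusted edgeR p was under 0.05 for 3 of 10 (Vdac2, Opa1 and Mfn1), and for 3162 of all 16183 genes. DESeq2 called 0 of 10, and 4.89% of its genes. The groups did not overlap for 4 of 10 (Vdac2, Mfn1, Mfn2 and Tfam), against 11.5% of all genes. In Akita + NACET against WT, 0 of 10 were called by edgeR and 0 by DESeq2, where 0.00618% and 0.0773% of all genes were. An unadjusted edgeR p under 0.05 was found for 0 of 10, and for 750 of all 16183 genes. The 2 groups overlapped for all 10, where 4.17% of all genes did not overlap, and the log2 differences lay between -0.10 (Vdac3) and 0.12 (Pink1).

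Under treatment in both genotypes, 1 of 10 was higher in Akita (Mfn1) and 1 lower (Vdac2, -0.23 ± 0.08, edgeR adjusted p = 0.0491), where 6.01% of all genes were higher and 7.26% lower (13.3% in all). DESeq2 called both, and 17.0% of its genes. The ranges overlapped for all 10, where 8.01% of all genes did not overlap. The Vdac2 call there was lost without any 1 of 6 libraries (Akita + NACET replicate 2, 4 or 5 or WT + NACET replicate 3, 5 or 6, adjusted p 0.0845 to 0.134). In the interaction 3 of 10 were called, all negative, where 10.2% of all genes were called negative, 10.1% positive and 20.3% in either direction. DESeq2 called 4 (with Mfn1, positive), and 23.7% of its genes. The median of the 10 was -0.22, against 0.00 over all genes.

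Around these 10 genes, 83 further genes of mitochondrial import, dynamics, mitophagy, biogenesis and DNA maintenance were listed, and 82 were tested. In Akita against WT 10 of the 82 rose and 0 fell, where 3.96% of all genes rose and 3.68% fell. The genes with the smallest p were Top1mt, the mitochondrial topoisomerase (0.59 ± 0.12, edgeR adjusted p = 0.0155), Bcl2l13, an outer membrane mitophagy receptor (0.43 ± 0.10, 0.0222), and Hk1, the hexokinase that docks on VDAC (0.56 ± 0.14, 0.0235). By role, 2 of 13 porin partners and import genes, 0 of 14 fusion genes, 1 of 9 fission genes, 2 of 16 mitophagy genes, 2 of 16 biogenesis regulators and 3 of 14 mitochondrial DNA genes rose. The median over the 82 was 0.11.

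With NACET in Akita, 1 of the 82 rose and 5 fell, where 4.51% of all genes rose and 5.14% fell, and the median was -0.13. The one that rose was Pprc1, a PGC-1 related coactivator (0.59 ± 0.14, edgeR adjusted p = 0.0207), from 11.8 ± 0.475 CPM (SD, n = 4) to 17.9 ± 2.34 (n = 5). Top1mt fell by 0.68 ± 0.10 on the log2 scale (edgeR adjusted p = 0.0104), from 39.1 ± 3.60 CPM to 24.3 ± 2.82. Slc25a5, an adenine nucleotide translocase, fell by 0.44 ± 0.11 (edgeR adjusted p = 0.0217) and Hk1 by 0.46 ± 0.12 (edgeR adjusted p = 0.0250).

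In WT mice, where 0.859% of all genes rose, the treatment raised 1 of the 82, Tk2, the mitochondrial thymidine kinase (0.36 ± 0.08, edgeR adjusted p = 0.0195), from 41.9 ± 1.69 CPM (SD, n = 3) to 53.7 ± 2.81 (n = 6). None fell. In Akita + NACET against WT 0 of the 82 were called by edgeR or DESeq2. The unadjusted edgeR p was under 0.05 for 6 of the 82, and for 750 of all 16183 genes. Under treatment, 6 of the 82 were higher in Akita than in WT and 8 lower, shares near the 6.01% and 7.26% of all genes. The higher genes with the smallest p were Pprc1 (0.59 ± 0.12, edgeR adjusted p = 0.00522), the AMPK subunit Prkaa2 (0.37 ± 0.08, 0.00597) and the transcription factor Yy1 (0.36 ± 0.11, 0.0330). The lower genes were led by Fundc1, a mitophagy receptor (-0.32 ± 0.08, edgeR adjusted p = 0.0116), Tomm22, an import receptor (-0.44 ± 0.12, 0.0221), and Top1mt (-0.32 ± 0.09, 0.0281).

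The interaction was positive for 2 of the 82, where it was positive for 10.1% of all genes (Pprc1, 0.99 ± 0.20, edgeR adjusted p = 0.00366, and Prkaa2, 0.39 ± 0.13, 0.0327). It was negative for 17, where it was negative for 10.2% of all genes, with the smallest p for Top1mt (-0.92 ± 0.15, edgeR adjusted p = 0.00176), Tk2 (-0.47 ± 0.10, 0.00577) and Hk1 (-0.74 ± 0.17, 0.00799). Its median over the 82 was -0.19. Fitted with the outside-exon share as a covariate, 0 of the 82 were called in Akita against WT, in Akita + NACET against Akita and in the interaction. In that fit 0, 0 and 17 of all 16183 genes were called in the same contrasts.

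Markers of retinal cell types moved across the same groups. Of 6 rod markers, 2 rose in Akita, 4 fell with NACET in Akita and 6 had a negative interaction, where 3.96%, 5.14% and 10.2% of all genes did so. Their summed level was 27281 to 38118 CPM in WT, 33955 to 45908 in WT + NACET, 35793 to 51576 in Akita and 24737 to 33126 in Akita + NACET. Of 5 amacrine cell markers, 4 fell in Akita (3.68% of all genes) and 3 rose with NACET in Akita (4.51%). A positive interaction was called for 4 (10.1%). Their summed levels were 371 to 490, 292 to 428, 238 to 313 and 347 to 456 CPM in the same order of groups. Of 6 cone markers, 3 fell with NACET in Akita (5.14%) and 4 were lower in Akita + NACET than in WT + NACET (7.26%). A negative interaction was called for 3 (10.2%). Of 5 red blood cell genes, 2 rose with NACET in Akita (4.51%) and 3 were higher in Akita + NACET than in WT + NACET (6.01%). Of 5 microglial markers, 3 were lower in Akita + NACET than in WT + NACET (7.26%). The lists for bipolar and horizontal cells, Mueller glia, astrocytes, endothelium and pericytes had at most 1 called gene in any contrast, and those for ganglion cells, pigment epithelium and skeletal muscle had none. Summed levels still differed in 2 of these lists. Astrocyte markers summed to 46.8 to 101 CPM in WT, 145 to 300 in WT + NACET, 41.6 to 133 in Akita and 36.8 to 111 in Akita + NACET. Pigment epithelium markers summed to 135 to 543, 358 to 1283, 57.2 to 203 and 84.9 to 628 CPM in the same order of groups. Lens crystallins and the lens filament gene Bfsp1 summed to 1.08 to 8.79 CPM in WT and 0.911 to 14963 in WT + NACET. In Akita they summed to 1.26 to 1291 CPM and in Akita + NACET to 1.10 to 639. They were called in no contrast. The part of these markers in the mitochondrial genes' differences was not tested.

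For each of the 10 genes the gene with the most alike pattern over the 18 libraries was looked up among all genes tested, as a description. The correlation of log2 CPM was highest for Mfn1 with Luc7l2 (r = 0.98), Vdac2 with Jkamp (0.96) and Mfn2 with Anp32e (0.96). It was 0.94 for Ppargc1a with Txndc11, 0.92 for Vdac1 with Ubl7, 0.91 for Opa1 with Gatad1, and 0.90 for Vdac3 with Calm2 and for Tfam with Them4. Pink1 with Ptms (0.87) and Dnm1l with Ppme1 (0.75) had the lowest values.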

How the data were processed

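Retinal RNA of 18 libraries was grouped by the sample labels. The authors prepared poly(A) libraries (TruSeq RNA v2), read them from one end on a NextSeq 500 and aligned them to mm9 with TopHat 2.1.0, then counted exon reads per gene with HTSeq-count 0.11.2, without regard to strand. The deposited values are raw counts, not normalized. Reads aligned to several places were not counted, which lowers genes with near-identical copies. The 5 summary rows and 1 row without a name (0.0054% of counts) stayed out of library sizes and tests, and 185 ribosomal RNA genes (0.977% of counts on average) were removed.

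All 4 groups were fitted together with edgeR 4.0.16 (quasi-likelihood F test; R 4.3.3; TMM, robust, default filter with a minimum count of 10 and a minimum total of 15), adjusted after Benjamini and Hochberg. Log2 differences are given with their SE and 95% intervals from the fit. The common dispersion was 0.0347. DESeq2 1.42.0, other filters and scalings, a replicate block, a fit of 2 groups, the outside-exon share as covariate and the removal of each library were alternatives; adding Vdac3-ps1 counts was chosen after seeing the data. Replicates differed by more than sampling noise (chi-square per gene 4.83 to 56.2), so each was counted once. The members and gene lists were chosen with earlier results of these data known. All 10 members are named, and, of the other genes listed, the 3 called genes with the smallest p in each direction. Of the 83 listed, 10 were matched by an older symbol. Copies of coding sequences (at least 90% identity over 100 bases) were searched in mm9 with minimap2 2.31. Promoter windows are those of RefSeq (GRCm38.p6), each placed in mm9 by an exact match. Of the rod markers listed, 1 is not reported here.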

Additional observations from a re-analysis of the deposited data

Results flagged for a closer look

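The difference made by NACET in Akita mice differed from that in WT mice, by the interaction term of the edgeR fit, for Vdac2 (-0.53 on the log2 scale), Opa1 (-0.35) and Mfn2 (-0.31). Vdac2 and Mfn2 were lower with NACET in Akita and higher in WT, with only the former called, and Opa1 had the same signs with neither called.

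Of the 30 combinations of gene and group with 4 to 6 libraries, 1 had a library far from the rest by Dixon's test, where chance gives about 1 in 20: Tfam in WT + NACET replicate 5, at 26.9 CPM, above the 22.4 to 23.9 CPM of the other 5.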

How the results depend on the processing

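Vdac2's interaction was called in 24 of 25 alternatives, Mfn2's in 20 and Opa1's in 17; none of the 3 was called with the outside-exon share as covariate. Members called in Akita + NACET vs Akita (2) numbered 0 without an expression filter, with the replicate block, with the covariate and in the fit on only the 2 groups. In the same order, all genes called there numbered 1010, 219, 0 and 700, against 1562 in the original fit. In Akita + NACET vs WT + NACET (2) the members called numbered 1 with DESeq2 size factors and in the fit on 2 groups, and 0 without a filter, with the block and with the covariate. All genes called there numbered 2125, 2267, 1610, 1363 and 194 in that order, against 2148. In Akita vs WT (0) the members called numbered 1 with DESeq2 size factors, 1 at a mean count of at least 50 and 2 with DESeq2. All genes called there numbered 1259, 1280 and 2062, against 1237. In the interaction (3) the members called numbered 1 without a filter and 0 with the covariate. All genes called there numbered 2551 and 17, against 3289. Of the 82 other genes, those called in Akita + NACET vs Akita (6) numbered 2 with the block, 0 with the covariate, 3 in the fit on 2 groups and 14 with DESeq2; in Akita + NACET vs WT + NACET (14) 8 without a filter, 7 with the block and 2 with the covariate; in Akita vs WT (10) 6 without a filter, 2 with the block, 0 with the covariate and 1 in the fit on 2 groups; in WT + NACET vs WT (1) 0 with the covariate; in the interaction (19) 12 without a filter and 0 with the covariate. Over all genes, DESeq2 called 2338 in Akita + NACET vs Akita. In Akita vs WT 880 were called without a filter, 507 with the block, 0 with the covariate and 148 in the fit on 2 groups. With the covariate 61 were called in WT + NACET vs WT, against 240. With fewer samples the 2-group fits have less power. Otherwise the cause was not tested. Leaving out 1 library gave 0 to 2 members in Akita + NACET vs Akita, 0 to 3 in Akita + NACET vs WT + NACET, 0 to 1 in Akita vs WT (1, Mfn2, without Akita replicate 3), 0 in WT + NACET vs WT and in Akita + NACET vs WT, and 1 to 5 in the interaction (1 without WT replicate 2). For the 82 other genes the ranges were 0 to 10, 3 to 17, 0 to 11, 0 to 2, 0 and 8 to 22. Over all genes they were 1 to 1757, 860 to 2425, 0 to 1520, 72 to 329, 0 to 2 and 1699 to 3524.

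No log2 difference that changed sign was called before or after the change. Those with the outside-exon share as covariate were Dnm1l -0.045 (Akita vs WT) and -0.042 (WT + NACET vs WT), Mfn1 0.0055 (Akita vs WT), Pink1 0.033 (Akita + NACET vs Akita) and 0.21 (interaction), Ppargc1a 0.032 (interaction), Vdac1 0.0089 (Akita + NACET vs WT + NACET) and -0.063 (WT + NACET vs WT), and Vdac3 0.098 (Akita + NACET vs Akita), -0.10 (WT + NACET vs WT) and 0.20 (interaction). At a mean count of at least 50 they were Dnm1l -0.00021 (Akita vs WT) and Ppargc1a 0.019 (interaction), and with Vdac3-ps1 counts added, Vdac3 0.026 (Akita vs WT). Leaving out 1 library moved through 0, in Akita + NACET vs WT, Dnm1l (-0.020 to 0.11), Mfn1 (-0.081 to 0.11), Opa1 (-0.038 to 0.10), Ppargc1a (-0.015 to 0.17), Tfam (-0.10 to 0.035), Vdac1 (-0.10 to 0.025) and Vdac2 (-0.065 to 0.031), in Akita vs WT, Dnm1l (-0.042 to 0.084) and Vdac3 (-0.13 to 0.067), in WT + NACET vs WT, Dnm1l (-0.057 to 0.068), Pink1 (-0.051 to 0.043) and Vdac3 (-0.072 to 0.12), in Akita + NACET vs Akita, Ppargc1a (-0.21 to 0.018), and in the interaction, Dnm1l (-0.046 to 0.079) and Ppargc1a (-0.081 to 0.15).

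Samples with the same replicate number did not deviate together (22 pairs, r from -0.33 to 0.34, 4 over 0.1), so the numbers do not pair them. With the replicate block, Dnm1l was -0.040 (WT + NACET vs WT), Mfn1 -0.089 (Akita + NACET vs WT) and Ppargc1a 0.012 (interaction), and 2 of the 3 interactions were called. The total count per library limits the genes with the lowest levels, Mfn1 and Tfam.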
